A study of Arabidopsis thaliana with 24 samples.

Results

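The comparison described here sets seedlings that overexpress the long noncoding RNA ELENA1 (OX) against wild type (WT), averaged over 3 times under the bacterial peptide elf18. It uses 18 of the 24 Arabidopsis thaliana RNA sequencing libraries of the study, 9 from OX and 9 from WT, with 3 biological replicates for each genotype at 1 h, 6 h and 12 h, and every locus of the count table. The table counts 21407 loci, and 20928 of them passed the limit on low counts. The 6 libraries of 0 h, 3 from OX and 3 from WT, were left out of the average and served only as a separate set. All seedlings were of the Col-0 background and 2 weeks old. Those of the treated groups had been moved from agar to liquid medium with 5 µM elf18, and those of 0 h had received no peptide. No group was moved to liquid without peptide, so the peptide, the transfer and the hour of harvest were shared by OX and WT at each time and cannot be told apart from each other. Neither the promoter of the overexpression construct nor the number of independent lines is stated in the labels, and ELENA1 itself (AT4G16355) was not analysed here, so these counts do not check the overexpression. Whole seedlings were extracted, and a smaller number of cells of a type cannot be told apart from less RNA per cell in any value below.

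The receptor kinase EFR detects elf18, the start of the bacterial protein EF-Tu, at the plant surface. Within minutes, detection sets off an oxidative burst, MAP kinases and early transcription factor genes. Later it raises salicylic acid, whose receptors act with TGA transcription factors on genes such as PR1, and pipecolic acid, whose hydroxylated form carries systemic acquired resistance. Jasmonate and ethylene form another arm of defence that often opposes the salicylic acid arm. ELENA1 is itself induced by elf18 and is known to associate with the Mediator subunit MED19A and to promote PR1 expression. The average over the treated times gives each time the same weight, so a large difference at a single hour can pass as well as one present at every hour.

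Total counts ran from 18767661 to 85230211 in the OX libraries and from 19450232 to 56672924 in the WT libraries. Time set the first principal axes, with 67.8% of the variance on the first and 15.6% on the second. In 3 libraries (replicate 1 of OX at 1 h and of OX at 6 h, and replicate 3 of WT at 12 h) the counts fell with transcript length more steeply than in the others of their group. Markers of the organs in a seedling had summed levels that overlapped between the genotypes, while 5 of the 20 markers tested passed, 3 higher and 2 lower, as given with the nutrient genes. The summed level of 11 root markers was 137 to 206 CPM (counts scaled to library size) with a median of 173 in OX, against 149 to 199 with a median of 179 in WT. For 5 stomatal lineage markers it was 41.3 to 51.2 (median 47.5) in OX and 36.1 to 49.8 (median 46.0) in WT, and for the 4 shoot meristem and epidermis markers found it was 142 to 211 (median 173) in OX and 138 to 232 (median 198) in WT. No marker of these lists was at 0 in all libraries.

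Averaged over the treated times, 10 of 22 salicylic acid receptors and response genes, 10 of 24 cysteine-rich receptor-like kinases and 4 of 9 pipecolic acid and acquired resistance genes were higher in OX and none of these lists had a member lower. Of the lignin precursor enzymes 11 of 17 were lower, as were 13 of 34 early elf18 and flg22 marker genes, 7 of 27 jasmonate genes and 6 of 18 ethylene genes, and in each of these lists except the lignin precursor one most members did not pass. At 0 h, without peptide, 12 of the 27 jasmonate genes and 8 of the 34 early marker genes were lower too, against 5.35% of all genes tested there. Of the 20928 genes, 1993 (9.52%) passed an adjusted p of 0.05 in edgeR's quasi-likelihood test, 966 of them higher (4.62%) and 1027 lower (4.91%) in OX. Every adjusted p below is from that test. The median size of the passing differences was 0.29 on the log2 scale. At least 2-fold differences were found for 99 genes (0.473%), 82 of them higher (0.392%) and 17 lower (0.0812%). Of the passing genes, 1738 (87.2%) had the same sign at all 3 times, against 30.3% of all genes tested. Choosing genes by their average raises the 87.2% by itself. All 3 OX libraries lay above all 3 WT libraries at each of the 3 times for 220 genes (1.05%) and below them for 194 (0.927%). Of these, 218 and 183 also passed. Without the 3 libraries of steep length trend, 1760 genes passed, and 1417 of them were among the 1993. The count was 1248 without 1 h, 1027 without 6 h and 1115 without 12 h.

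**Figure D1:**
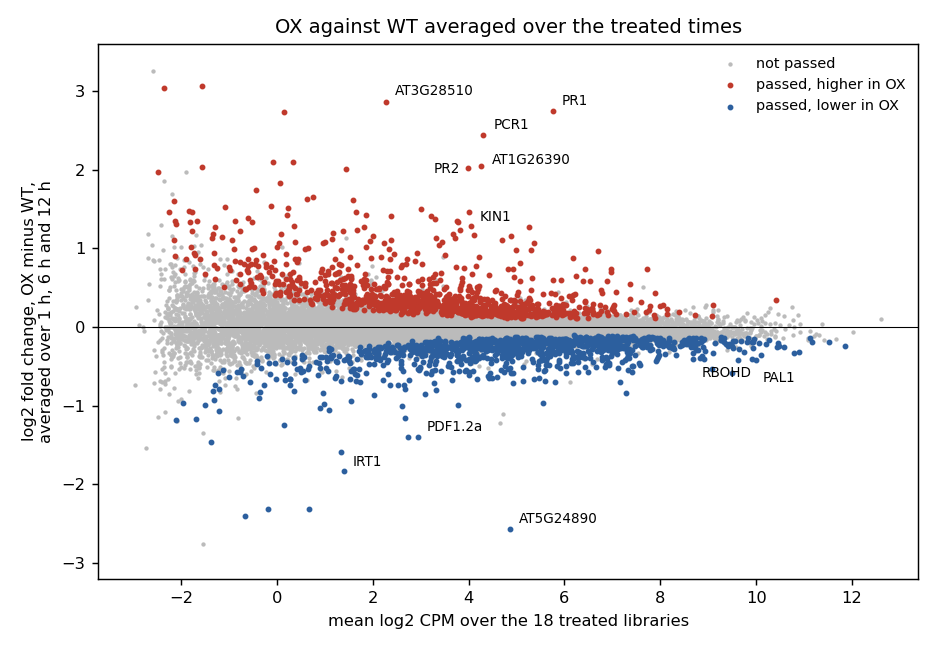
Each point is a gene, placed by its mean log2 CPM over the 18 treated libraries (x axis) and its log2 fold change, OX minus WT, averaged over 1 h, 6 h and 12 h (y axis). Red points passed and were higher in OX (966 genes), blue points passed and were lower (1027), grey points did not pass. PR1, AT3G28510 and PCR1 lie highest among well expressed genes and AT5G24890 lies lowest.

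The genes raised most steadily were taken from those above a low limit of expression (mean log2 CPM at least 1) whose OX and WT libraries did not overlap at any of the 3 times. Steady refers here to this lack of overlap, not to an equal size of the difference at each time. PR1, which encodes a secreted antimicrobial protein, had 82.5, 45.3 and 87.8 CPM in OX at 1 h, 70.7, 42.6 and 50 at 6 h and 177, 123 and 173 at 12 h. In WT it had 7.25, 12.4 and 7.00 CPM at 1 h, 5.83, 5.71 and 7.66 at 6 h and 32.6, 34.8 and 42.4 at 12 h. The lowest OX library, at 42.6 CPM, was above the highest WT library of any treated time, at 42.4 CPM. Averaged over the times, PR1 was higher in OX by 2.75 ± 0.15 on the log2 scale (SE, 9 libraries a genotype, adjusted p = 1.8e-09).

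AT3G28510, annotated as a nucleoside triphosphate hydrolase of the P-loop superfamily, showed the largest average difference of this group, 2.86 ± 0.21 (SE, adjusted p = 6.4e-08). Its level was 1.3, 1.36 and 2.58 CPM in OX and 0.196, 0.217 and 0.284 in WT at 1 h. At 6 h it was 2.29, 4 and 3.78 CPM in OX and 0.148, 0.237 and 0.094 in WT, where WT was near the floor. At 12 h it was 18, 15.8 and 20.1 CPM in OX, against 7.47, 3.90 and 6.94 in WT. Both genotypes were thus highest at 12 h, and the difference ran from 2.86 at 1 h to 4.18 at 6 h and 1.55 at 12 h (genotype by time, adjusted p = 0.022). PCR1, a small membrane protein gene linked to cadmium resistance, had 53.4, 26.0 and 61.4 CPM in OX at 1 h, 12.9, 17.3 and 18.9 at 6 h and 37.9, 37.3 and 36.8 at 12 h. In WT it had 9.52, 8.79 and 9.10 CPM at 1 h, 1.83, 1.91 and 2.4 at 6 h and 6.51, 12.2 and 10.4 at 12 h. The average difference of PCR1 was 2.45 ± 0.15 (SE, adjusted p = 9.5e-09), and all 9 OX libraries exceeded all 9 WT libraries.

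AT1G26390, a FAD-binding oxidase gene of the berberine bridge enzyme family, had 9.47, 6.33 and 12.9 CPM in OX at 1 h, 14.6, 15.5 and 16.5 at 6 h and 52.7, 72.6 and 51.8 at 12 h. Its levels in WT were 0.98, 1.40 and 1.08 CPM at 1 h, 3.31, 3.23 and 4.18 at 6 h and 26.9, 31.3 and 31.9 at 12 h. It rose with time in both genotypes while the distance between them shrank, from 3.03 at 1 h to 2.15 at 6 h and 0.98 at 12 h (average 2.05 ± 0.12 SE, adjusted p = 5.3e-09; genotype by time, adjusted p = 0.0051). PR2, a glucanase gene of the same salicylic acid response, had 17.1 to 39.2 CPM (median 24.7) over the OX libraries and 2.54 to 13.1 (median 5.15) over the WT libraries, with no overlap. Its average difference was 2.03 ± 0.15 (SE, adjusted p = 5.6e-08).

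**Figure D2:**
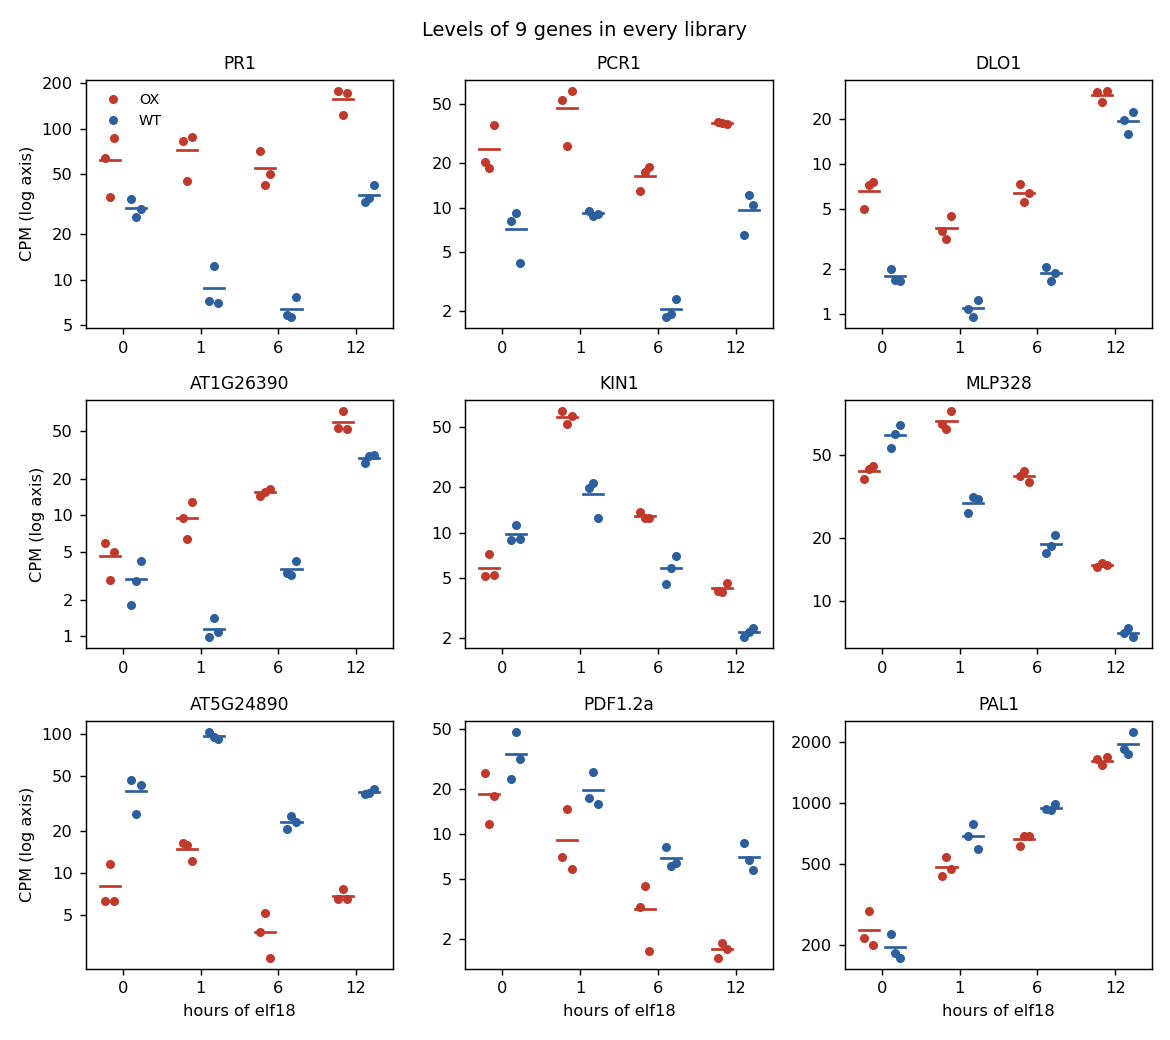
CPM on a log axis for 9 genes in every library, by hours of elf18 (x axis), with OX (red) left of WT (blue). Points are libraries and bars are means of 3. At 1 h, 6 h and 12 h the OX points of PR1, PCR1, DLO1, AT1G26390, KIN1 and MLP328 lie above the WT points and those of AT5G24890, PDF1.2a and PAL1 below, while at 0 h KIN1 and MLP328 lie the other way.

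The 250 bases before the annotated start are shown for AT3G28510 and AT1G26390, because TGA and WRKY transcription factors act in the salicylic acid response. Both genes were strongly higher in OX with no overlap at any treated time, though the size of the difference changed with time. Capitals mark TTGAC, the core that WRKY factors bind, and TGACG, the core that TGA factors bind, on either strand (GTCAA and CGTCA when read on the other strand). The sequences are from the TAIR10.1 assembly and RefSeq annotation, in the direction of transcription, at chr3:10685220-10685469 on the plus strand for AT3G28510 and chr1:9131780-9132029 on the minus strand for AT1G26390. Neither window overlaps another annotated gene.
AT3G28510: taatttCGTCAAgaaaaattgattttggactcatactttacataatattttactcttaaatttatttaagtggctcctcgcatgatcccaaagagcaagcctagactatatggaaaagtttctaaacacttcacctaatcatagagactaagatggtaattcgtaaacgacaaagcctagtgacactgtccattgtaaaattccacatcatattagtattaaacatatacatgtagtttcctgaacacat
AT1G26390: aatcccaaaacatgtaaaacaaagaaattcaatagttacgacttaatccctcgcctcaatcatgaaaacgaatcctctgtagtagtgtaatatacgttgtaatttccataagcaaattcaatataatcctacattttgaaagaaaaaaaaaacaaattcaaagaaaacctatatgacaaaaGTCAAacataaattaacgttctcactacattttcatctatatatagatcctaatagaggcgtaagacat
AT3G28510 and AT1G26390 each held 1 TTGAC, and in AT3G28510 it overlapped a TGACG. They are examples of windows that hold these letters, since TTGAC occurred in 5 of the 12 genes of largest steady increase (41.7%) and 5 of the 12 of largest steady decrease, and TGACG in 3 of 12 (25%) on each side.

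Over all windows of that length, TTGAC occurred in 45.6% of 20866 genes tested, in 57.3% (47 of 82) of those at least 2-fold higher in OX and in 47.1% (8 of 17) of those at least 2-fold lower. TGACG occurred in 19.4% of genes tested, in 31.7% (26 of 82) of those at least 2-fold higher and in 11.8% (2 of 17) of those at least 2-fold lower. ACGTG, the core bound by abscisic acid response factors, occurred in 24% of genes tested, in 37.8% (31 of 82) of those at least 2-fold higher and in 35.3% (6 of 17) of those at least 2-fold lower. GCCGCC, the core bound by ethylene response factors, occurred in 1.93% of genes tested, in 0 of 82 of those at least 2-fold higher and in 5.88% (1 of 17) of those at least 2-fold lower. Over all 966 genes that were higher, the shares were 49.5% for TTGAC, 20.9% for TGACG, 23.3% for ACGTG and 1.04% for GCCGCC (965 windows), and over all 1027 that were lower they were 54.2%, 19.5%, 30.3% and 2.15% (1025 windows). TTGAC and TGACG share 4 bases, so a single TTGACG counts for both. These shares describe letters, not binding.

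The other genes of the steady set, given here with MLP328 and AT4G11320, which were named for a small adjusted p, were a mixed group. IPS1, a noncoding RNA of phosphate starvation that sequesters miR399, had 1.59 to 7.78 CPM (median 3.70) in OX and 0.284 to 1.65 (median 0.937) in WT, an average difference of 2.01 ± 0.23 (SE, adjusted p = 1.3e-05). AT5G37990, annotated as an S-adenosylmethionine-dependent methyltransferase, had the smallest adjusted p but one among well expressed genes that were higher (1.46 ± 0.07 SE, adjusted p = 2e-10). Its level was 46.0, 42.1 and 42.8 CPM in OX and 14.8, 17.8 and 14.6 in WT at 1 h. MLP328, of the major latex protein family, had a smaller p still, with 14.6 to 81.2 CPM (median 39.6) in OX and 6.71 to 31.5 (median 18.3) in WT (1.16 ± 0.05 SE, adjusted p = 1.9e-10). The cysteine protease gene AT4G11320 was higher by 0.96 ± 0.06 (SE, adjusted p = 5.3e-09). The cupredoxin gene AT2G15780 (1.62 ± 0.17 SE, adjusted p = 4.6e-06) and the ankyrin gene ANK (1.42 ± 0.15 SE, adjusted p = 7.3e-06) completed the set beside genes of the lists below. ANK had 0.513, 0.517 and 0.302 CPM in OX at 6 h and 0.074, 0.0677 and 0.094 in WT, near the floor. The difference of ANK was 2.62 there and 0.55 at 12 h, where its level was highest. AT2G15780 was low at 1 h, with 0.692, 0.656 and 0.535 CPM in OX and 0.174, 0.155 and 0.171 in WT. Its difference was 0.71 at 12 h.

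Genes that act on salicylic acid were sorted by role. Among 12 genes of its synthesis and regulation, 4 rose and 1 fell. SARD1, a transcription factor gene that activates the synthesis gene ICS1, was higher by 0.34 ± 0.07 (SE, adjusted p = 0.0022). PBS3, whose product joins the precursor isochorismate to glutamate, was higher by 0.47 on average, but the differences were 1.34, 0.00 and 0.06 at 1 h, 6 h and 12 h, and it was not called without 1 h (0.04) or with an additive model (0.35). The regulator gene EDS1 was higher by 0.18 ± 0.04 (SE, adjusted p = 0.014), and was not called without 1 h (0.15) or without 12 h (0.13). WRKY28, whose product binds the ICS1 promoter, was lower, with 104, 107 and 89.3 CPM in OX and 163, 164 and 117 in WT at 1 h (average -0.41 ± 0.07 SE, adjusted p = 0.0011). The list count of 4 was 1 without 1 h and 2 without 12 h, and SARD1 (0.34) was not called when all 24 libraries were fitted together.

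Of 6 genes of salicylic acid turnover, 3 rose, none fell and 3 did not pass. Of those that rose, DLO1 and DMR6 encode enzymes that break salicylic acid down, and MES9 encodes one that releases it. DLO1, a hydroxylase that inactivates salicylic acid, had 3.56, 3.16 and 4.48 CPM in OX and 1.09, 0.962 and 1.25 in WT at 1 h. At 6 h it had 7.30, 5.58 and 6.40 CPM in OX and 2.07, 1.66 and 1.88 in WT, and at 12 h 30.1, 25.7 and 30.6 in OX and 19.7, 15.8 and 22.3 in WT. No OX library overlapped a WT library of its own time, and the average difference was 1.38 ± 0.09 (SE, adjusted p = 3.7e-08; genotype by time, adjusted p = 0.0059). Its relative DMR6, which hydroxylates salicylic acid at another position, was higher by 0.44 ± 0.06 (SE, adjusted p = 0.00015), with 0.02 at 1 h, 0.84 at 6 h and 0.44 at 12 h. MES9, an esterase gene that frees salicylic acid from its methyl ester, was higher by 0.54 ± 0.10 (SE, adjusted p = 0.0019). DMR6 and MES9 were not called without 6 h (0.23 and 0.31).

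Of 22 salicylic acid receptors and response genes, 10 rose and none fell. The list median was 0.46 at 1 h, 0.22 at 6 h and 0.07 at 12 h. The test of genotype by time called 6 of the 22, against 1.35% of all genes. In the 0 h libraries alone the list median was 0.43, with 3 members higher and 0 lower. Besides PR1 and PR2, LURP1 (1.27 ± 0.14 SE, adjusted p = 7.3e-06) and SAG13 (1.17 ± 0.11 SE, adjusted p = 2.3e-06) showed differences over 2-fold. SAG13, a gene of senescing and infected leaves, was 9.62 to 53.4 CPM (median 12.4) in OX and 4.02 to 24.5 (median 6.49) in WT, and its difference of 1.19, 1.2 and 1.14 at the 3 times varied little. LURP1, a gene needed for full defence against an oomycete, differed by 1.21 at 1 h, 2.41 at 6 h and 0.20 at 12 h (genotype by time, adjusted p = 0.0051). Of 9 pipecolic acid and acquired resistance genes, 4 rose and none fell. ALD1, the aminotransferase that starts pipecolic acid synthesis, had 1.17 to 7.60 CPM (median 4.93) in OX and 0.569 to 3.58 (median 1.28) in WT, a difference of 1.46 ± 0.13 (SE, adjusted p = 1e-06). FMO1, which hydroxylates pipecolic acid, was higher by 0.78 ± 0.09 (SE, adjusted p = 1.2e-05), and the aspartyl protease gene AED1 by 1.41 ± 0.10 (SE, adjusted p = 5.6e-08). The lectin gene AT5G03350 was higher by 0.48 ± 0.10 (SE, adjusted p = 0.0042) and was not called without 6 h (0.33) or with an additive model (0.42). The list median of the pipecolic acid genes was 0.01 on average, against 0.00 over all genes tested. At the single times it was 0.26 at 1 h, 0.36 at 6 h and -0.03 at 12 h, and FMO1 differed by 0.21 at 12 h.

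Of 24 cysteine-rich receptor-like kinases, which sit in the plasma membrane and are often induced by salicylic acid, 10 rose and none fell, with a list median of 0.16 against 0.00 over all genes tested. At the single times the list median was 0.14 at 1 h, -0.01 at 6 h and 0.31 at 12 h. CRK37 had 0.755 to 4.85 CPM (median 1.36) in OX and 0.124 to 2.52 (median 0.559) in WT (1.65 ± 0.16 SE, adjusted p = 2.9e-06). CRK7 had 3.37 to 22.3 CPM (median 7.95) in OX and 0.797 to 11.1 (median 3.23) in WT (1.5 ± 0.13 SE, adjusted p = 3.4e-07). Both had no overlap between the genotypes at any of the 3 times. CRK45 had 135 to 181 CPM (median 169.8) in OX and 102 to 147 (median 112) in WT (0.45 ± 0.06 SE, adjusted p = 4e-05). Members of this family are close copies that can share reads, so the values of single members are uncertain.

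Of 28 surface receptors and early signalling genes, 2 rose and 4 fell. The 2 that rose were the receptor genes RLP23 and FLS2 (AT5G46330). FLS2 was higher by 0.16 ± 0.04 (SE, adjusted p = 0.015), and was not called under 4 of 29 alternatives. RLP23, the receptor-like protein gene for a fungal and bacterial peptide motif, had 6.51 to 22.5 CPM (median 12.3) in OX and 3.58 to 12.1 (median 6.35) in WT, with overlap at 6 h, and was higher by 1.04 ± 0.12 (SE, adjusted p = 1.2e-05). MKK9, a MAP kinase kinase gene that acts above ethylene and camalexin synthesis, was lower at every time, with 65.2, 68.1 and 61.0 CPM in OX and 86.0, 86.4 and 88.6 in WT at 1 h and 34.5, 29.9 and 35.6 in OX and 49.9, 52.1 and 53.4 in WT at 12 h. The difference of MKK9 was -0.54 ± 0.05 (SE, adjusted p = 1.7e-06). RBOHD, the oxidase gene of the oxidative burst, was lower by a small amount (-0.22 ± 0.05 SE, adjusted p = 0.014) and was not called without 1 h (-0.14), without 6 h (-0.19) or with all 24 libraries (-0.23). The count of 4 lower was 1 without 1 h and 1 without 6 h. Of 18 intracellular receptors and helpers, only AT1G17600, of the TIR-NBS-LRR class, passed, and it was higher (0.55 ± 0.08 SE, adjusted p = 0.00037).

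Of the 34 early elf18 and flg22 marker genes, 13 fell, 1 rose and 20 did not pass, with a list median of -0.13. In the 0 h libraries alone the list median was -0.15, with 8 members lower and 0 higher. The difference was more positive under treatment than at 0 h for 8 members and more negative for 2. The ethylene response factor genes ERF6 and ERF104, and the zinc finger genes ZAT10 and ZAT6 were among those lower. ERF6, whose product is a substrate of MAP kinases, had 102, 89.5 and 94.1 CPM in OX and 139, 129 and 151 in WT at 1 h, and 12.9, 12.2 and 13.1 in OX and 20.8, 22.3 and 25.8 in WT at 12 h. Its difference was -0.53, -0.65 and -0.85 at the 3 times, and -0.68 ± 0.07 on average (SE, adjusted p = 2.9e-06). ZAT10, a repressor of stress genes, had 47.8 to 99.96 CPM (median 79.7) in OX and 90.8 to 136 (median 114) in WT (-0.57 ± 0.06 SE, adjusted p = 8.7e-06). ERF104 differed by -0.02 at 1 h, -0.83 at 6 h and -0.79 at 12 h (average -0.55 ± 0.06 SE, adjusted p = 1.6e-05), so its libraries overlapped at 1 h only. WRKY53, a transcription factor gene of senescence and defence, was the member that rose, with no overlap at any of the 3 times (0.34 ± 0.04 SE, adjusted p = 6.5e-05).

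**Figure D3:**
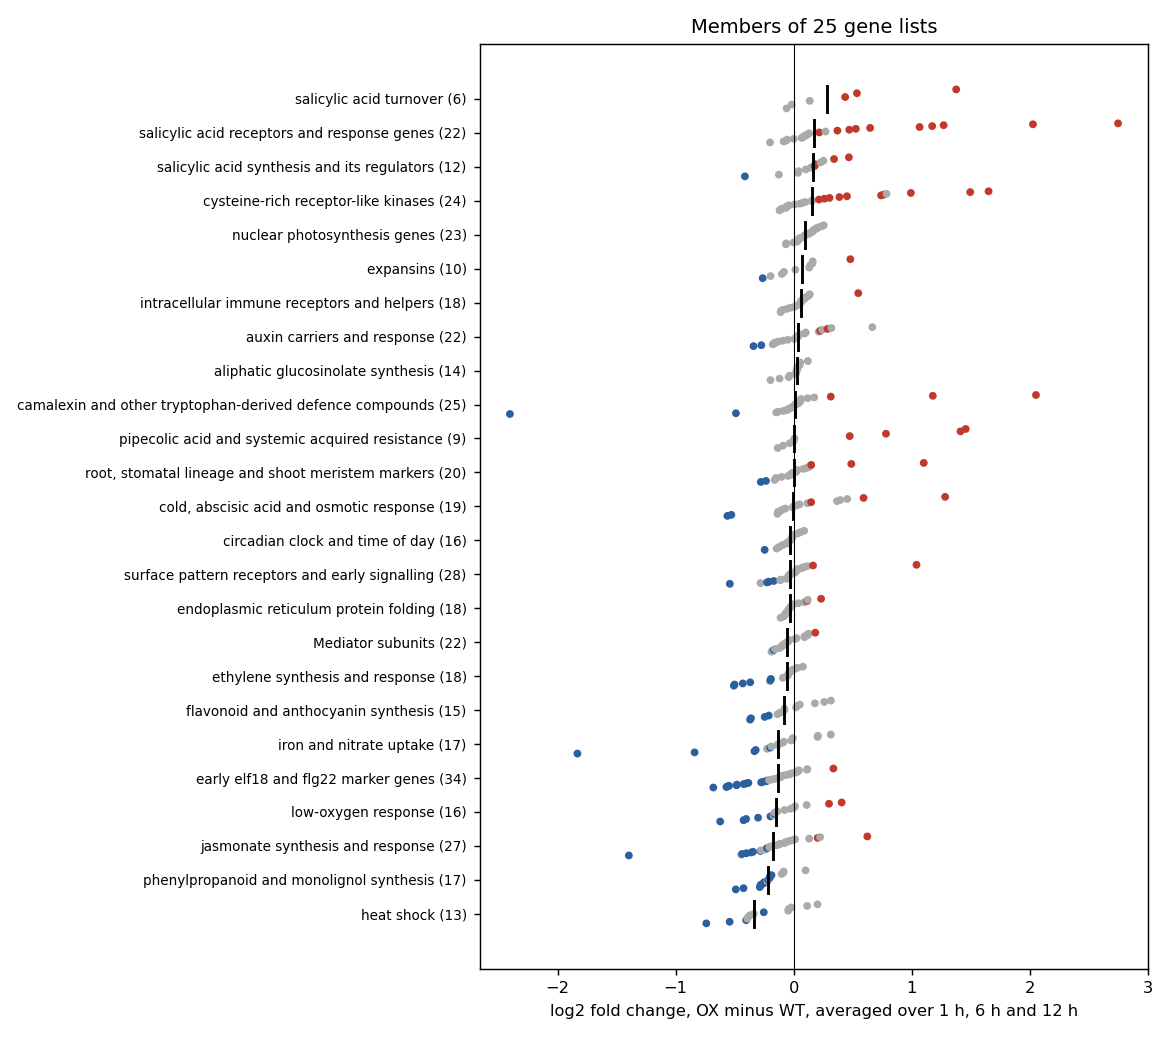
Each point is a tested member of one of 25 gene lists, placed by its log2 fold change, OX minus WT, averaged over the treated times (x axis). Red points passed and were higher, blue points passed and were lower, grey points did not pass, and black bars are list medians. The height of a point within a row follows its rank and has no other meaning. The lists of salicylic acid receptors and response genes and of cysteine-rich receptor-like kinases carry 10 red points each and none blue. The early marker list carries 13 blue and 1 red.

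Of 27 jasmonate genes 7 fell, 2 rose and 18 did not pass, with a list median of -0.18. In the 0 h libraries alone the list median was -0.37, with 12 members lower and 0 higher. The difference was more positive under treatment than at 0 h for 7 members and more negative for 1. The plant defensin gene PDF1.2a, the common marker of combined jasmonate and ethylene signalling, had 7.06, 14.6 and 5.84 CPM in OX at 1 h, 3.26, 4.49 and 1.66 at 6 h and 1.5, 1.88 and 1.72 at 12 h. In WT it had 17.2, 25.9 and 15.8 CPM at 1 h, 8.14, 6.11 and 6.44 at 6 h and 8.69, 6.69 and 5.71 at 12 h. The genotypes did not overlap at any of these times, and the difference was -1.40 ± 0.18 (SE, adjusted p = 6e-05). The neighbouring, nearly identical PDF1.2c differed by -1.59 ± 0.24 (SE, adjusted p = 0.00027), and reads of these copies may be shared. MYC2, the main jasmonate transcription factor gene, was lower at each time with no overlap (-0.40 ± 0.06 SE, adjusted p = 0.00017). VSP2, a storage protein gene of the wound branch, was higher (0.63 ± 0.13 SE, adjusted p = 0.0056), and was not called without 1 h (0.55). The count of 7 was 4 without 1 h, 4 when OX 12 h replicate 2 was left out and 3 when WT 6 h replicate 2 was.

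Of 18 ethylene genes, 6 fell, none rose and 12 did not pass. ERF1, the transcription factor gene at the junction with jasmonate, had 5.41, 4.30 and 5.01 CPM in OX and 11.5, 10.6 and 10.5 in WT at 1 h. Its differences of -1.14, -0.15 and -0.23 at the 3 times varied (genotype by time, adjusted p = 0.025), and its average of -0.51 ± 0.08 (SE, adjusted p = 0.00058) was -0.18 and not called without 1 h. The ethylene synthesis gene ACS2 was lower, at -0.37 ± 0.07 (SE, adjusted p = 0.0027). ACS8, another synthesis gene, was lower, at -0.50 ± 0.12 (SE, adjusted p = 0.0099), and was not called without 6 h (-0.47) or without 12 h (-0.43). The receptor gene ETR2 was lower, at -0.20 ± 0.04 (SE, adjusted p = 0.0086), and was not called without 1 h (-0.06). The ethylene count was 3 without 6 h and 3 without 12 h.

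Of the enzymes that turn phenylalanine into lignin precursors, 11 of 17 fell, none rose and 6 did not pass, with a list median of -0.22. PAL1, the entry enzyme, had 439, 541 and 473 CPM in OX and 689, 785 and 592 in WT at 1 h. At 6 h it had 616, 687 and 691 CPM in OX and 934, 925 and 986 in WT, and at 12 h 1644, 1534 and 1682 in OX and 1854, 1740 and 2245 in WT. Both genotypes rose with time and OX stayed below WT throughout, at -0.42 ± 0.06 (SE, adjusted p = 0.00022). PAL2, a second entry enzyme, was lower, at -0.28 ± 0.04 (SE, adjusted p = 0.00027), and the cinnamoyl-CoA reductase gene AT1G80820, at -0.49 ± 0.08 (SE, adjusted p = 0.00038). CCoAOMT1, a methyltransferase of the pathway, was lower, at -0.22 ± 0.05 (SE, adjusted p = 0.0083), and was not called without 6 h (-0.17) or without 12 h (-0.19). The list's median difference was -0.06 at 1 h, -0.35 at 6 h and -0.23 at 12 h, and 3 members were called without 6 h and 6 without 12 h. The flavonoid branch had 4 of 15 lower and none higher, 0 without 6 h or without 12 h, and 2 without OX 12 h replicate 1 or 3, OX 1 h replicate 3, OX 6 h replicate 1, WT 12 h replicate 2, or WT 6 h replicate 1 or 3. The median difference of the flavonoid list changed sign, with 0.33 at 1 h, -0.28 at 6 h and -0.38 at 12 h. The dirigent protein gene DIR5, of a family that guides lignan coupling, was lower at each time with no overlap (-0.69 ± 0.08 SE, adjusted p = 1.3e-05).

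In the tryptophan branch, 3 of 25 members rose and 2 fell. Besides AT1G26390, CYP82C2, a cytochrome P450 gene of indole-derived defence compounds, rose by 1.18 ± 0.09 (SE, adjusted p = 1.4e-07). CYP82C2 had 43.4, 46.4 and 41.9 CPM in OX and 14.8, 13.2 and 13.1 in WT at 12 h, and its difference was 0.69, 1.18 and 1.67 at the 3 times. CYP71A12, another P450 gene of this branch, rose by 0.32 ± 0.07 (SE, adjusted p = 0.0047), and was not called without 6 h (0.20). The 2 that fell were the P450 genes CYP71A13 (-0.49 ± 0.14 SE, adjusted p = 0.037) and CYP82C4 (-2.40 ± 0.73 SE, adjusted p = 0.047). CYP71A13 was not called under 19 of 29 alternatives and CYP82C4 under 16 of 28. CYP82C4 was near the floor, with 0 CPM in every OX library at 6 h. In edgeR, 0 of 14 aliphatic glucosinolate genes passed, with 1 higher and 0 lower at an unadjusted p under 0.05 and 0 called by DESeq2. For nuclear photosynthesis genes 0 of 23 passed in edgeR, with 6 higher and 0 lower at an unadjusted p under 0.05 and 2 higher by DESeq2, and 4 were higher without 12 h, without WT 12 h replicate 3 or without WT 6 h replicate 3.

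Among stress genes outside immunity, KIN1 had the smallest adjusted p of the 19 cold, abscisic acid and osmotic genes, of which 3 rose and 2 fell. KIN1, a cold-induced gene, had 63.8, 52.6 and 59.2 CPM in OX at 1 h, 13.8, 12.6 and 12.6 at 6 h and 4.13, 4.04 and 4.67 at 12 h. In WT it had 19.9, 21.4 and 12.6 CPM at 1 h, 4.59, 5.86 and 7.00 at 6 h and 2.03, 2.2 and 2.35 at 12 h. It was higher in OX at each time with no overlap, by 1.28 ± 0.10 on average (SE, adjusted p = 1e-07). Its neighbour and close copy KIN2 was higher by 0.59 ± 0.10 (SE, adjusted p = 0.00056), with 1.19, 0.80 and -0.21 at the 3 times, and was not called without 1 h (0.30). NCED3, an abscisic acid synthesis gene, was lower, at -0.56 ± 0.12 (SE, adjusted p = 0.0072), and was not called without 6 h (-0.45).

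Nutrient genes moved too. Of 17 iron and nitrate uptake genes, 5 fell and none rose, 3 without 12 h. IRT1, the iron transporter of root epidermis, had 0.202 to 2.64 CPM (median 1.09) in OX and 0.559 to 13 (median 3.05) in WT, with overlap at 6 h (-1.83 ± 0.33 SE, adjusted p = 0.0013). The nitrate reductase gene NIA2 had 2480, 2911 and 2747 CPM in OX and 3485, 3584 and 3668 in WT at 1 h, and was lower at every time with no overlap (-0.32 ± 0.05 SE, adjusted p = 0.00017). NIA1, its partner, was lower, at -0.33 ± 0.07 (SE, adjusted p = 0.0036), and was not called without 6 h (-0.25). The nitrate transporter gene NRT2.1, counted among the root markers, went the other way, with 16.2, 11.4 and 12.6 CPM in OX and 3.92, 3.66 and 4.55 in WT at 1 h (average 1.1 ± 0.14 SE, adjusted p = 6.5e-05). Of all 20 organ markers tested, 3 rose and 2 fell. Besides NRT2.1 and STM these were FAMA of the guard cell lineage (0.15, adjusted p = 0.033), CASP1 of the root endodermis (-0.28, adjusted p = 0.0076) and COBL9 of root hairs (-0.23, adjusted p = 0.044). FAMA was not called under 11 alternatives and COBL9 under 19, most of them with a single library left out, and CASP1 was not called without 1 h or with all 24 libraries. STM, a homeobox gene of the shoot meristem, had 2.35 to 3.81 CPM (median 2.82) in OX and 1.86 to 2.85 (median 2.16) in WT (0.49 ± 0.07 SE, adjusted p = 0.00022), and the part of organ proportions in these differences was not tested.

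The remaining lists held few calls. Of 22 Mediator subunits, 1 rose and 1 fell. MED19A, the subunit tied to ELENA1, had 26.3 to 31.4 CPM (median 30.1) in OX and 23.6 to 30.6 (median 25.2) in WT, and was higher by 0.18 ± 0.04 (SE, adjusted p = 0.0035). Its differences were 0.08, 0.17 and 0.30 at the 3 times, and it was not called without 12 h (0.12). Of 22 auxin genes 2 rose and 2 fell, of 10 expansins 1 rose and 1 fell, of 18 endoplasmic reticulum folding genes 2 rose and none fell, and of 16 clock genes none rose and 1 fell. Over the alternatives, which include leaving out a whole time as well as a single library, the range was 0 to 4 higher and 0 to 5 lower for auxin, 0 to 3 in each direction for expansins, 0 to 1 higher and 0 to 2 lower for Mediator, 0 to 2 higher for endoplasmic reticulum folding and 0 to 1 lower for clock genes. It was 1 to 4 higher for intracellular receptors (4 with the libraries of steep length trend left out), 0 to 2 lower for the tryptophan branch, 1 to 5 higher for cold and abscisic acid genes, 0 to 3 higher for jasmonate genes and 0 to 2 higher for low-oxygen genes. The auxin carrier genes PIN7 (0.29 ± 0.05 SE, adjusted p = 0.00087) and LAX3 (0.23 ± 0.04 SE, adjusted p = 0.0018) were not called without 1 h (0.18 and 0.10), and were called under the other alternatives run.

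AT5G24890 was the most strongly lowered gene above the expression limit and had the smallest adjusted p of all. Its product is of unknown function. It had 16.5, 15.9 and 12.2 CPM in OX at 1 h, 3.76, 5.12 and 2.47 at 6 h and 6.50, 7.64 and 6.49 at 12 h. In WT it had 103, 94.4 and 91.0 CPM at 1 h, 20.8, 25.8 and 23.4 at 6 h and 37.1, 37.6 and 39.8 at 12 h. All 9 OX libraries were below all 9 WT libraries, and the difference was -2.66, -2.57 and -2.46 at the 3 times (average -2.56 ± 0.09 SE, adjusted p = 2.2e-12). Of the 12 genes lowered most steadily, SUC7, a sucrose transporter gene, was close to PDF1.2a in size (-1.40 ± 0.14 SE, adjusted p = 2.9e-06). The peroxidase gene AT1G49570 had 47.0, 50.8 and 51.7 CPM in OX and 115, 125 and 106 in WT at 1 h (average -0.70 ± 0.06 SE, adjusted p = 3.2e-07), and the peroxidase gene AT5G19890 was lower, at -0.54 ± 0.05 (SE, adjusted p = 4e-07). AT1G73120, a protein of unknown function annotated to oxidative stress, had 57.5, 67.8 and 58.6 CPM in OX and 111, 103 and 112 in WT at 12 h (-0.96 ± 0.08 SE, adjusted p = 1.4e-07).

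The average hides genes whose difference changed with time. The test of genotype by time, with 2 degrees of freedom, called 282 of 20928 genes (1.35%), and 123 of them also passed on average. Of the 282, 227 changed sign between times, with signs counted however small the value. Over all genes tested only 30.3% had the same sign at all 3 times, so changing sign was common among genes not called too. The difference was largest at 1 h for 197 of the 282, at 6 h for 46 and at 12 h for 39. The hour of the largest difference was not counted over all genes. The peroxidase gene AT5G19880 had the smallest adjusted p (1.2e-05). It had 1.68, 1.61 and 2.09 CPM in OX and 0.131, 0.186 and 0.114 in WT at 1 h, but 27.7, 25.1 and 26.6 in OX and 29.1, 29.9 and 33.4 in WT at 12 h, for differences of 3.56, 0.07 and -0.22, and it was among the genes that were higher on average (1.14, adjusted p = 4.4e-06). Hsp70-2, a chaperone gene, had 60.6, 60.3 and 57.7 CPM in OX and 23.7, 28.5 and 31.7 in WT at 1 h, and differed by 1.12, -0.15 and -0.18 (adjusted p = 0.00029). AT5G51190, of the ethylene response factor family, overlapped at 1 h and had 9.37, 12.0 and 10.8 CPM in OX and 21.7, 24.1 and 22.5 in WT at 6 h (adjusted p = 0.00035). The nicotianamine synthase gene NAS4 differed by 1.01, 0.03 and -0.44 (adjusted p = 0.00066), the pectin methylesterase inhibitor family gene AT2G45220 by -0.69, 0.72 and 0.29 (adjusted p = 0.00066), and the mannose phosphate isomerase gene DIN9 by -0.93, 0.22 and 0.34 (adjusted p = 0.00069). AT5G51190 was not called by time when all 24 libraries were fitted together.

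Both WT and OX libraries bore on that count of 282. With the 3 libraries of steep length trend left out it fell to 173. Leaving out 1 library gave 122 and 127 without OX 12 h replicates 1 and 3, 161 and 168 without WT 12 h replicates 1 and 3, 158, 152 and 186 when replicates 1, 2 and 3 of WT at 1 h were left out, and 174 and 166 when replicates 1 and 2 of WT at 6 h were.

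**Figure D4:**
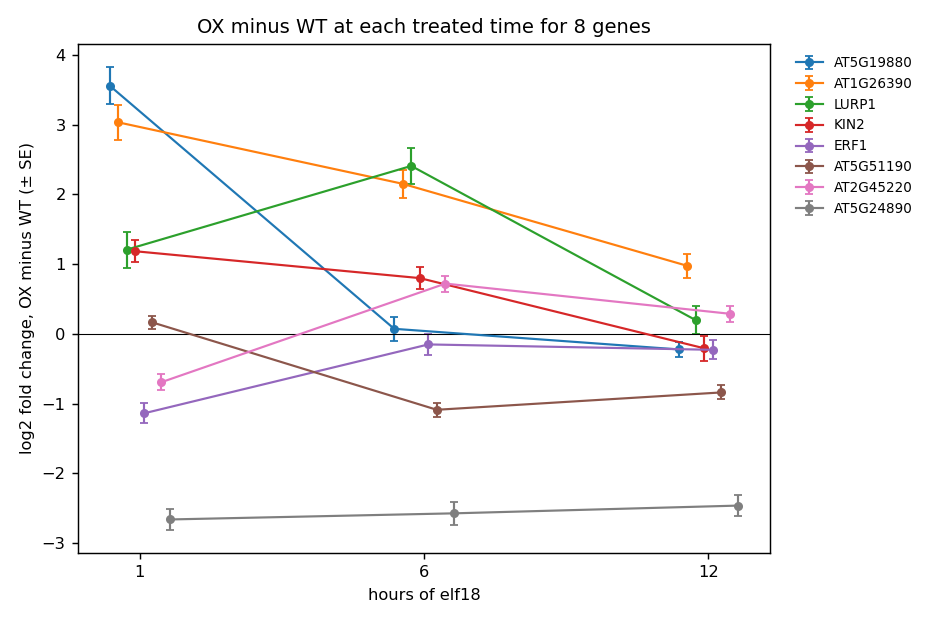
Log2 fold change, OX minus WT, at 1 h, 6 h and 12 h of elf18 (x axis) for 8 genes, with bars of 1 SE from the fit. AT5G19880 starts at 3.56 and ends at -0.22, AT2G45220 goes from -0.69 to 0.72 and 0.29, and AT5G24890 stays between -2.66 and -2.46.

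The 0 h libraries, which took no part in the average, were fitted alone to show whether the differences were there without peptide. In them 1889 of 20646 genes passed (9.15%), 785 higher (3.8%) and 1104 lower (5.35%) in OX. Of the 966 genes higher over the treated times, 941 were tested at 0 h, 498 of them (52.9%) had the same sign there and 85 (9.03%) were called the same way, while 70 were called the other way. Of the 1027 genes lower over the treated times, 1020 were tested at 0 h, 689 (67.5%) had the same sign and 177 (17.35%) were called the same way, while 42 were called the other way. Over all genes tested in both, 49.7% had a positive difference, OX minus WT, at 0 h. The share of the same sign was not counted over all genes. For the 82 genes at least 2-fold higher, 67 were tested at 0 h, 44 (65.7%) had the same sign, 15 were called the same way and 8 the other way. By list, the median at 0 h was 0.00 for lignin precursor enzymes (0 higher, 1 lower) and 0.08 for ethylene genes (1 higher, 2 lower). It was 0.31 for cysteine-rich receptor-like kinases (2 higher, 1 lower) and 0.27 for pipecolic acid genes (1 higher, 0 lower). The 0 h count was 599, 764 and 618 when OX replicates 1, 2 and 3 were left out in turn, 3606 when WT replicate 1 was and 1005 when WT replicate 2 was.

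AT5G24890 was as far apart at 0 h as under treatment, with 6.30, 11.6 and 6.28 CPM in OX and 46.7, 26.7 and 42.5 in WT (-2.27 ± 0.28 SE, adjusted p = 0.0032). SUC7 (-1.73 ± 0.22 SE, adjusted p = 0.0033), AT3G28510 (2.04 ± 0.27 SE, adjusted p = 0.0039), PCR1 (1.70 ± 0.31 SE, adjusted p = 0.014) and DLO1 (1.82 ± 0.18 SE, adjusted p = 0.0018) also differed at 0 h in the direction they kept later. PR1 was 1.00 ± 0.28 higher in these libraries (SE, adjusted p = 0.059), and PR2 1.1 ± 0.39 (SE, adjusted p = 0.13). SAG13 differed by -0.01 and ALD1 by 0.27 at 0 h (adjusted p = 0.98 and 0.68).

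**Figure D5:**
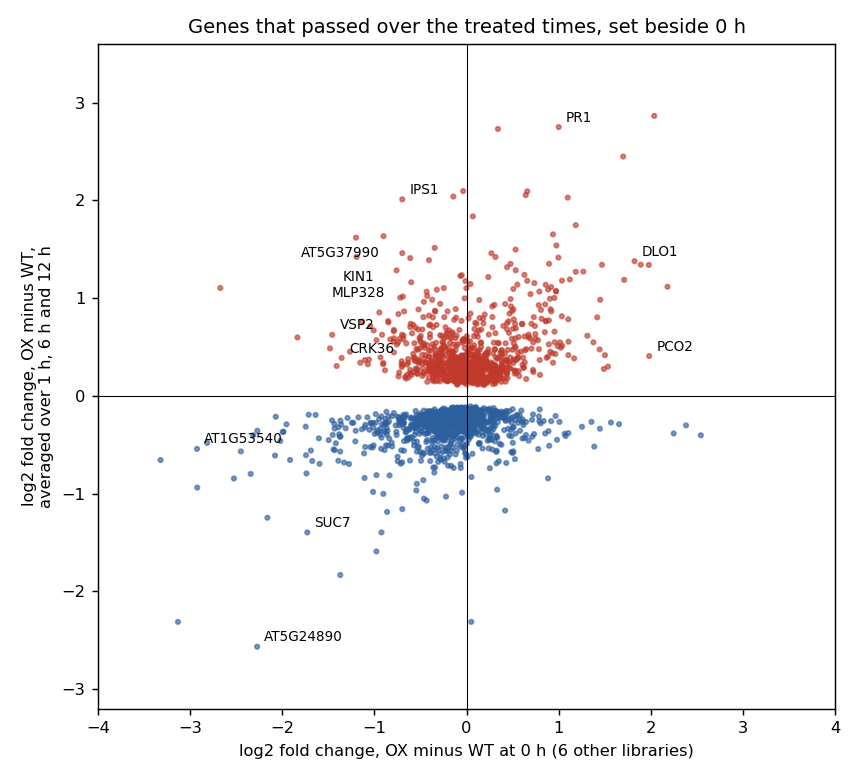
Genes that passed over the treated times, placed by their log2 fold change, OX minus WT, in the 6 libraries of 0 h (x axis) and by the average over 1 h, 6 h and 12 h (y axis), red where the average was higher in OX and blue where it was lower. AT5G24890 and DLO1 lie far from 0 on both axes with the same sign, while KIN1, MLP328, AT5G37990, VSP2 and CRK36 lie left of 0 and above it.

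Some genes passed in opposite directions without peptide and under it. KIN1 had 5.15, 7.18 and 5.26 CPM in OX and 8.98, 11.2 and 9.04 in WT at 0 h (-0.76 ± 0.16 SE, adjusted p = 0.022), against 1.28 over the treated times. MLP328 had 38.7, 42.8 and 44.5 CPM in OX and 54.0, 63.2 and 69.6 in WT at 0 h (-0.60 ± 0.10 SE, adjusted p = 0.011), against 1.16. AT5G37990 (-0.70 ± 0.07 SE, adjusted p = 0.0021), VSP2 (-1.46 ± 0.23 SE, adjusted p = 0.0077) and CRK36 (-1.36 ± 0.25 SE, adjusted p = 0.014) did likewise. The difference between the treated average and 0 h, fitted over all 24 libraries, was 2.01 ± 0.20 for KIN1 (SE, adjusted p = 5.4e-07), 1.73 ± 0.11 for MLP328 (adjusted p = 1.8e-09), 2.12 ± 0.12 for AT5G37990 (adjusted p = 2.8e-10), 2.05 ± 0.26 for VSP2 (adjusted p = 1.6e-05) and 1.71 ± 0.20 for CRK36 (adjusted p = 4.3e-06).

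Over all genes, that difference passed for 2415 of 21015 (11.5%), 1236 of them more positive under treatment (5.88%) and 1179 more negative (5.61%). The count was 1344 without WT 0 h replicate 2. Heat shock and low-oxygen genes were among the extremes. HSFA2, a heat shock factor gene, had 1.94, 1.32 and 1.41 CPM in OX and 10.8, 20.4 and 19.4 in WT at 0 h, but 3.70 to 9.84 (median 5.43) in OX and 2.59 to 9.62 (median 4.39) in WT under treatment. Its difference between treated average and 0 h was 3.59 ± 0.24 (SE, adjusted p = 2.2e-09). The 13 heat shock genes had a median difference of -1.74 at 0 h and -0.34 over the treated times, 8 of them more positive under treatment than at 0 h, and 4 fell over the treated times (1 without 12 h, 7 without 1 h, 0 without 6 h). Their median was 0.40 at 1 h, -0.51 at 6 h and -0.37 at 12 h. The test of genotype by time called 4 of the 13, against 1.35% of all genes. PDC1, a fermentation enzyme gene, had 40.8, 62.5 and 60.3 CPM in OX and 8.49, 12.8 and 5.39 in WT at 0 h, whereas at 1 h it had 1046, 1206 and 1257 CPM in OX and 1357, 1436 and 1321 in WT. Its difference between treated average and 0 h was -2.99 ± 0.27 (SE, adjusted p = 2.4e-07). The 16 low-oxygen genes had a median of 0.82 at 0 h and -0.15 over the treated times, 10 of them more negative under treatment than at 0 h. Over the treated times 6 of them fell and 2 rose, with 2 falling without 1 h and 3 without 12 h. HRE2, a low-oxygen transcription factor gene, was lower, at -0.62 ± 0.11 (SE, adjusted p = 0.0011), and was not called without 12 h (-0.36).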

How the data were processed

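Read counts per locus, deposited by the authors as whole numbers, 1 column per library, were used as they stand. The build TAIR10 and the tools DESeq2, Cuffdiff, Cufflinks 2.1.1 and TopHat2 2.0.8 appear, without roles, in the submitters' processing notes, and the labels' protocols name stranded polyadenylated RNA libraries read for 75 cycles with the replicates of a condition pooled for sequencing. If each pool held 1 group, a difference between OX and WT at a time cannot be told apart from a difference between pools. How reads were assigned to loci, and with which strand setting, is not given in the sources used here, so reads of antisense partners or close copies cannot be told apart. The labels call the replicates biological without saying more, so p-values measure the spread between these samples. Replicates of a group differed beyond counting noise (lowest chi-square per degree of freedom 1.61).

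Of 21407 loci, 21330 matched the TAIR10.1 annotation by locus and 77 did not. The 18 treated libraries were fitted with 6 group means in edgeR 4.0.16 (R 4.3.3, quasi-likelihood, TMM scaling, filterByExpr with a minimum count of 10), and the mean of the 3 OX minus WT differences was tested, with Benjamini-Hochberg adjustment over all genes and a threshold of 0.05. The same fit gave the test of genotype by time. The 0 h libraries were fitted alone, and treated minus 0 h differences came from a fit of all 24. Fold changes are log2 with the SE from the fit, and levels are TMM-scaled CPM. On simulated data made from these libraries, 99 of 100 genes changed by 1 and 83 of 100 changed by 0.5 on the log2 scale were recovered among 20858, with 8 false calls.

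The members and the 25 gene lists (474 loci, 466 in the table) were chosen with earlier results of these data known. Lists are described by counts and medians. Genes are named by rule: PR1, the 12 largest steady differences on each side, up to 4 members of a list with the smallest adjusted p and up to 2 of the other direction, 6 genes of genotype by time, 5 on each side of the treated minus 0 h difference and the 5 smallest p on each side, all outside the lists at a mean log2 CPM of at least 1. Alternatives were an additive model, DESeq2 1.42.0, RLE size factors, no filter, all 24 libraries, length correction, the replicate block, and leaving out times or libraries. FPKM values, 1 column a group, were not used here.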

Additional observations from a re-analysis of the deposited data

Results flagged for a closer look

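A result was picked out here where the OX minus WT difference of a named gene was not the same in every set of libraries, by a test of that change itself. The first set changed between 1 h, 6 h and 12 h (genotype by time, edgeR's quasi-likelihood test), and the adjusted p was smallest for the peroxidase gene AT5G19880. In order of adjusted p they were AT5G19880 (1.2e-05), Hsp70-2 (0.00029), AT5G51190 (0.00035), NAS4 (0.00066), AT2G45220 (0.00066), DIN9 (0.00069), AT1G26390 (0.0051) and LURP1 (0.0051). After these came DLO1 (0.0059), AT1G49570 (0.012), KIN2 (0.014), ERF104 (0.015), ANK (0.016), HSFA2 (0.017), AT3G28510 (0.022), WRKY53 (0.022), EXPA7 (0.023), ERF1 (0.025), FMO1 (0.027), LAX3 (0.027), DMR6 (0.029), AT2G15780 (0.032), PBS3 (0.034) and DIR5 (0.047).

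The second set differed between the treated times and 0 h. Values are the average OX minus WT log2 difference over the treated times minus that at 0 h, each past an adjusted p of 0.05 in edgeR's quasi-likelihood test over 24 libraries. The most positive values, several of them of heat shock genes, belonged to HSFA2 (3.59), HSP17.6A (2.81), AT2G15780 (2.76), HSP17.6II (2.72), IPS1 (2.70), AT1G53540 (2.35), AT5G37990 (2.12), VSP2 (2.05), KIN1 (2.01), MLP328 (1.73), PR1 (1.71), CRK36 (1.71), AT4G11320 (1.39) and AT1G26390 (1.36). Smaller positive values were found for NRT2.1 (1.32), ALD1 (1.17), SAG13 (1.15), Hsp70-2 (1.11), ANK (1.09), ZAT6 (1.09), KIN2 (1.07), EXPA8 (0.99), MES9 (0.95), NAS4 (0.90), ZAT10 (0.76), LAX3 (0.53), STM (0.47), RD22 (0.45), PIN7 (0.37) and MYB28 (0.36).

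The most negative values, with PDC1, LBD41 and PCO2 of the low-oxygen list among them, belonged to AT5G10040 (-4.73), SRO4 (-4.60), PDC1 (-2.99), AT3G43850 (-2.93), AT2G17850 (-2.78), LBD41 (-2.72), PCO2 (-1.60) and AT1G73120 (-1.34). Of these, AT5G10040 was not called without WT 6 h replicate 1 or WT 12 h replicate 1, SRO4 without WT 6 h replicate 1 or 2 or WT 12 h replicate 1, and AT2G17850 without WT 6 h replicate 2, and no library of these 3 genes exceeded 0.206 CPM at 6 h or 12 h. Smaller negative values were found for FTM1 (-1.26), DIR5 (-1.05), AT5G03350 (-1.0), PRR5 (-0.99), AT5G19110 (-0.98), WRKY28 (-0.93), AT1G68670 (-0.81), RBOHD (-0.75), PAL1 (-0.72), HSP18.2 (-0.69), AT1G49570 (-0.67), ETR2 (-0.55), DMR6 (-0.53), NIA1 (-0.52), AT5G05140 (-0.50), GH3.3 (-0.43), NIA2 (-0.39) and PAL2 (-0.38).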

How the results depend on the processing

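Of 105 named genes that passed on average, 54 passed under every alternative, 25 were lost only where a whole time was left out, 26 were lost under another alternative, and 0 changed sign. The count of genes that passed on average was 1993, and 2423 with DESeq2, 2011 with RLE size factors, 1619 with an additive model, 1848 with all 24 libraries, 2633 with length correction, 1987 with no filter and 1492 to 1995 with 1 library left out. It was 1248 without 1 h, 1027 without 6 h and 1115 without 12 h, where fewer libraries were fitted, and 99 with an added 2-fold limit. Genotype by time called 282 genes, 887 with DESeq2, 173 where the 3 libraries of steep length trend were left out, and 122 to 395 with 1 library left out. The separate 0 h comparison called 599 to 3606 genes with 1 library left out, against 1889 in full, and the treated average minus 0 h difference 1344 to 3077, against 2415. The cause of these shifts was not tested. Replicate numbers recur across groups, but the labels do not say what a number stands for, and deviations of same-numbered libraries correlated between -0.34 and 0.34, over 0.1 in 5 of 9 pairs, with 5 of 9 OX libraries closest to their own number. With the replicate block 2293 genes passed on average, 402 by time, 2072 at 0 h and 2695 for treated minus 0 h. The smallest treated library held 18767661 counts, and genes under the limit on low counts, which 20928 of 21407 loci passed, could not be tested at this depth.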
